A study of Mus musculus with 8 samples.

Results

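Axon growth cones and migrating neural cells read a small set of extracellular cues, and the genes that encode these cues and their receptors were examined here in cells that carry either normal or S89G-DMP1. The members were the protein-coding mouse genes of the semaphorin classes 3 to 7, the plexins, the neuropilins, the ephrins, the Eph receptors, the Slit ligands, the Robo receptors, the Unc5 receptors and Dcc, found by gene symbol. The rule gave 65 genes, 20 semaphorins, 9 plexins, 2 neuropilins, 8 ephrins, 14 Eph receptors, 3 Slit genes, 4 Robo genes and 5 genes of the Unc5 and Dcc group. All 65 were listed both among the 47729 genes of the neural stem cell (NSC) table and among the 40562 genes of the astrocyte table, and 3 symbols that match but are non-coding (Plxna4os1 to Plxna4os3) were left out.

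RNA sequencing covered 8 libraries from C57BL/6 mice of 10 weeks, either wild type (WT) or S89G-DMP1. S89G-DMP1 is a knock-in of both Dmp1 alleles in which the serine that carries the glycosaminoglycan chain of dentin matrix protein 1, an extracellular matrix proteoglycan, is replaced by glycine, made in C57BL/6J embryonic stem cells with the selection cassette later removed by FLP. NSCs came from the sub-ventricular zone and grew as neurospheres in DMEM/F12 with N2, with 3 WT and 3 S89G-DMP1 libraries. Astrocytes came from the cortex and grew in DMEM with 10% FBS, with 1 WT and 1 S89G-DMP1 library. No source used here states whether the 3 NSC libraries of a genotype are separate mice or cultures, so the p-values measure only the spread between these libraries, which may be technical. A chi-square per gene compared the counts of pairs of libraries, and is about 1 for counting error alone. It was 1.07 to 1.51 within a genotype and 3.17 to 4.06 between genotypes. The spread behind the p-values was thus little above counting error. In bulk RNA, fewer cells of a type and less RNA per cell cannot be told apart.

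Semaphorins are secreted (class 3) or membrane-bound (classes 4 to 7) ligands, and most of them signal through plexins, with neuropilins as the ligand-binding partner of plexins for most class 3 members. Ephrins are anchored in the membrane and bind Eph receptor tyrosine kinases on the neighbouring cell, so that signalling needs cell contact and can run in both directions. Slit proteins are secreted ligands of Robo receptors, and Dcc and the Unc5 proteins are receptors of netrins, Dcc mostly for attraction and Unc5 for repulsion. In the adult brain these families are known for steering axons, for neuroblast migration from the sub-ventricular zone and for contacts between glia and vessels.

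The depth and identity of the libraries bear on all values below. NSC libraries held 2354620 to 2588130 counts, and the astrocyte libraries labelled WT and S89G-DMP1 held 14008700 and 13016900. Dmp1 itself had 18, 21 and 16 counts in the WT NSC libraries and 6, 3 and 5 in the S89G-DMP1 NSC libraries, but 2 counts in the astrocyte library labelled WT and 119 in the one labelled S89G-DMP1. Dmp1 thus ran in opposite directions in the 2 cell types, and whether the astrocyte libraries carry the labels intended was not tested. NSC libraries of both genotypes carried the progenitor markers, at a summed 3943 to 4176 CPM (library-scaled read counts) in WT and 4396 to 4498 CPM in S89G-DMP1. The 8 astrocyte markers summed to 1470 to 1518 CPM in WT NSCs and to 1991 to 2043 CPM in S89G-DMP1 NSCs, with 3 of 6 tested markers called higher. Endothelial and microglial markers stayed below 5 CPM in all 6 NSC libraries. The astrocyte library labelled WT had 8 counts each of the astrocyte markers Aqp4 and Slc1a3, whereas the library labelled S89G-DMP1 had 4051 and 3877. Gja1 and S100b, the 2 of 8 astrocyte markers that were not at least 2-fold higher in the latter, had 1165 and 1913 counts and 64 and 30 counts. Gfap, the marker used to identify these cultures, had 90 and 901 counts. These differences accompany every astrocyte comparison and are given again beside it.

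The sequences before the transcription start are shown for 4 members called in NSCs, some that fell and some that rose. RefSeq promoter windows (GRCm38.p6) were at hand for 56 of the 65 members, as 72 windows, and for 14 of the 16 members called in NSCs. Plxna4 and Sema6a, which are among the called members with the smallest adjusted p, had no window and could not be shown. Printed are the 250 bases before the RefSeq start, 5′ to 3′ on the gene's strand, of the 4 called members with the smallest adjusted p that have exactly 1 window. Capitals mark the GC box letters GGGCGG, read on both strands. The windows lie on the plus strand at chr9:109095186-109095435 for Plxnb1, chr5:17574566-17574815 for Sema3c, chr16:35541112-35541361 for Sema5b and chr1:62703067-62703316 for Nrp2. RefSeq and GENCODE vM21 set the start differently, and the GENCODE gene begins at 109095389 for Plxnb1, at 17574281 for Sema3c, at 35541145 for Sema5b and at 62703285 for Nrp2, so that annotated exon bases can fall inside these windows.
Plxnb1: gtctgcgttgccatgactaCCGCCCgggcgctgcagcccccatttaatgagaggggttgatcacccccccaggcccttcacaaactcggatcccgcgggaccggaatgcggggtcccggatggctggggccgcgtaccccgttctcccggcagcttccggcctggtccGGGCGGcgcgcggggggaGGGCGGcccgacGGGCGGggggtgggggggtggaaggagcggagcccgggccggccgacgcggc
Sema3c: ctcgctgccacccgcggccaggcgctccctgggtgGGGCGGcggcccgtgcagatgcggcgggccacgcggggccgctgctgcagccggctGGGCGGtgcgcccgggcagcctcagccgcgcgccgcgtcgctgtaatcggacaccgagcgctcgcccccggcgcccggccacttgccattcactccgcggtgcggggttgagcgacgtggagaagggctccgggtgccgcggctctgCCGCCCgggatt
Sema5b: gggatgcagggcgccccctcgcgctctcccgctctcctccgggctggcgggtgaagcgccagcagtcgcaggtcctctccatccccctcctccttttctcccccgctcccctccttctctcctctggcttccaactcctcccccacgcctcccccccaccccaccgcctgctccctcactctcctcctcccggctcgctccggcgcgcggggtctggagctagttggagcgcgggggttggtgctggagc
Nrp2: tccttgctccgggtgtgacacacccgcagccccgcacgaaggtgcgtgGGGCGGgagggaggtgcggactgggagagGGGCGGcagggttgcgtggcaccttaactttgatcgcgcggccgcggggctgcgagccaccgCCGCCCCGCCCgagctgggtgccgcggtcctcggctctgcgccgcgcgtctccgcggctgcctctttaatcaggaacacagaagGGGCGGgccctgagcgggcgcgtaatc

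Plxnb1 and Sema5b fell in S89G-DMP1 NSCs, and Sema3c and Nrp2 rose. The GC box letters occurred 4 times in the Plxnb1 window, 3 times in the Sema3c window, 5 times in the Nrp2 window, where 2 copies overlap by a base, and not in the Sema5b window. None of the 4 held the TATA box letters TATAAA on either strand. Over the members, 51 of 72 windows (70.8%) held GGGCGG on either strand, compared with 32.7% of all 32851 windows of the same length. TATAAA was found in 2.78% of the member windows and 12.4% of all windows. The median GC content was 64.4% in the member windows and 52.4% in all, so the windows of the members also held more G and C. These are counts of letters, not of bound sites.

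In NSCs, 45 of the 65 members passed the filter on low counts and were tested. Of these, 13 (28.9%) were lower in S89G-DMP1, where 8.76% of the 11194 tested genes were lower, and 3 (6.67%) were higher, where 7.08% of all tested genes were higher. The lower members were 5 semaphorins, 4 plexins, Efnb2, Ephb2, Ephb6 and Unc5b. The higher members were Sema3c, Nrp2 and Robo2. The other 29 members were not called, 21 of them with a log2 fold change below 0 and 8 above. The median log2 fold change over the 45 members was -0.19, beside 0.00256 over all tested genes. Per library, the median member stood at -0.13, -0.14 and -0.26 (log2, relative to the WT mean) in S89G-DMP1, and between 0.00196 and 0.017 in WT. Of the 45, 3 passed the filter through their S89G-DMP1 libraries without passing in each WT library (Efna2, Epha4 and Ephb4), and none of these was called. Efna3, Efna4 and Robo3 passed in more WT than S89G-DMP1 libraries. Their estimates were -0.41, -0.58 and -0.88, and none of them was called either.

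The 20 members not tested had at most 9 counts in any NSC library. Slit3, Epha6 and Epha8 had 0 counts in all 6 libraries. By DESeq2, which gave 44 members an adjusted p, 5 were lower and 2 higher, where it called 3.88% of 10938 genes lower and 2.93% higher. All 7 of these were also called by edgeR. The groups did not overlap for 12 of the 13 lower members and for all 3 higher members, and for 20 of all 45 tested members (44.4%), beside 30.7% of all tested genes. Separation and call rest on the same counts and are not independent.

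**Figure D1:**
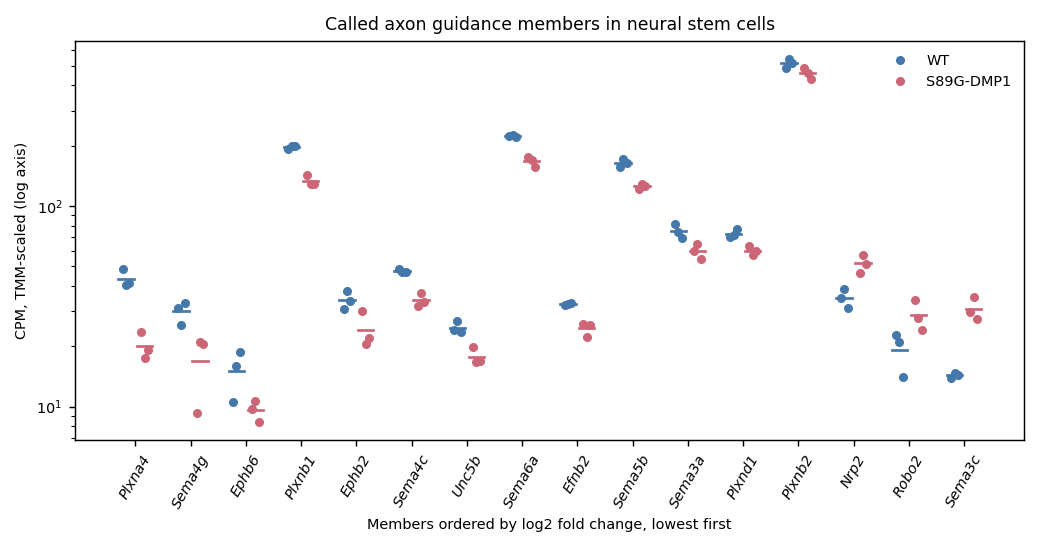
CPM (log axis, TMM-scaled) of the 16 called members in each NSC library, WT in blue and S89G-DMP1 in red, with the mean of 3 libraries as a bar. The groups are separate for every member shown except Ephb6, where the lowest WT library (10.5 CPM) lies just below the highest S89G-DMP1 library (10.7 CPM).

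Among the semaphorins, 13 of 20 were tested and 7 of these were not called. The 5 that fell made 38.5%, beside 8.76% of all tested genes, and the 1 that rose made 7.69%, beside 7.08%. Sema3c, a secreted class 3 ligand, had the largest rise among all members. It had 13.9, 14.8 and 14.4 CPM in the WT libraries and 29.5, 35.1 and 27.3 CPM in the S89G-DMP1 libraries, so that each mutant library lay above every WT library. The log2 fold change was 1.09 ± 0.17 (SE, n = 3 per genotype; adjusted p = 6.52e-07, quasi-likelihood F test of edgeR, adjusted by Benjamini-Hochberg over all tested genes, as are all NSC values below). Sema3a, the class 3 semaphorin best known for collapsing growth cones, went the other way. Its level was 81.3, 74.6 and 69.1 CPM in WT and 59.8, 65.1 and 54.5 CPM in S89G-DMP1. This change of -0.33 ± 0.10 (adjusted p = 0.0149) was small, and the adjusted p rose to 0.0889 without WT replicate 1 and to 0.117 without S89G-DMP1 replicate 3.

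The transmembrane semaphorins that passed the test all fell. Sema6a, a ligand of A-type plexins, measured 224, 226 and 220 CPM in WT and 177, 170 and 157 CPM in S89G-DMP1, a change of -0.41 ± 0.07 (adjusted p = 1.77e-06). Sema5b, a transmembrane semaphorin with thrombospondin repeats whose promoter is printed above, had 157, 173 and 165 CPM in WT and 121, 130 and 126 CPM in S89G-DMP1 (-0.39 ± 0.07, adjusted p = 2.67e-05). In both genes the 3 libraries of a genotype lay close together and the genotypes were well apart. Sema4c, a class 4 ligand of plexin B2, had 48.5, 47.0 and 46.7 CPM in WT and 31.6, 36.8 and 33.3 CPM in S89G-DMP1 (-0.48 ± 0.12, adjusted p = 0.0025). DESeq2 gave Sema4c the same estimate (-0.48) with an adjusted p of 0.0912. Sema4g, another class 4 member, had the largest fall of the family, with 31.2, 25.6 and 32.7 CPM in WT and 9.27, 21.0 and 20.5 CPM in S89G-DMP1 (-0.81 ± 0.18, adjusted p = 4.39e-04). Replicate 1 of S89G-DMP1 was far below the other mutant libraries, and without it the change was -0.52 (adjusted p = 0.0308).

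Sema6d had the highest level per exon length of the semaphorins, 28.7 ± 0.49 CPM per kb in WT and 27.9 ± 0.85 in S89G-DMP1 (SD, n = 3 each), and was not called (log2 fold change -0.04 ± 0.06, adjusted p = 0.737). On the same scale of level per length, Sema6a (25.5 and 19.2 CPM per kb) and Sema5b (23.3 and 17.8) were next. Sema4d had separate groups at 14.3, 11.3 and 13.6 CPM in WT and 9.69, 9.84 and 7.22 CPM in S89G-DMP1, but did not pass the test (-0.55 ± 0.23, adjusted p = 0.0951).

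**Figure D2:**
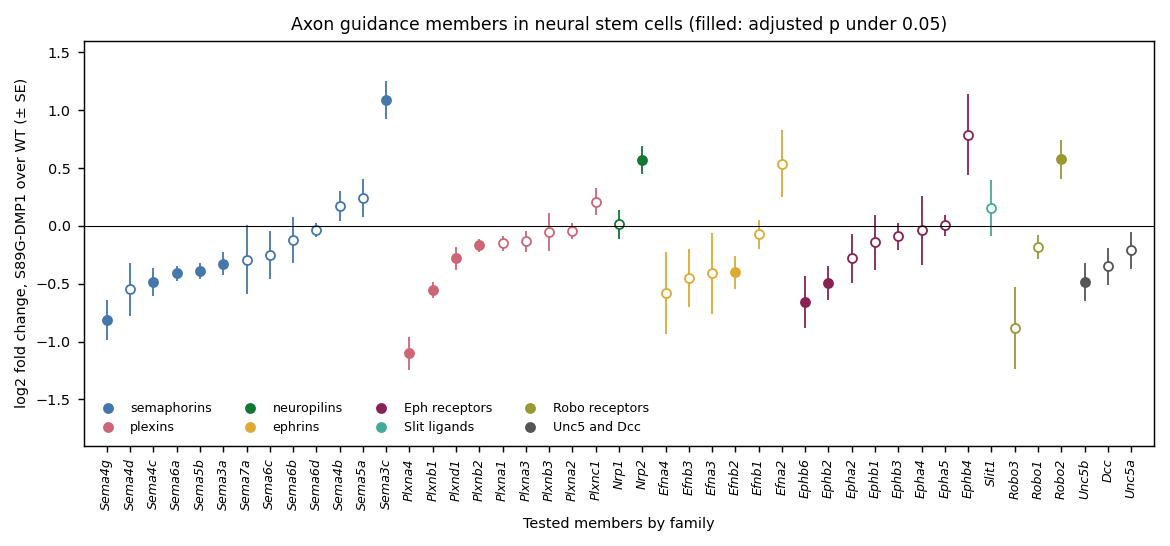
Log2 fold change (S89G-DMP1 over WT, 3 libraries each, bars are SE) of the 45 tested members in NSCs, ordered within each family, with filled points for an adjusted p under 0.05. Most points lie below 0, 34 of 45, and all 4 filled plexins are among them.

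All 9 plexins, the receptors of semaphorins, were tested in NSCs. Of these, 4 fell (44.4%), beside 8.76% of all tested genes, and none rose, beside 7.08%. The other 5 were not called, and 8 of 9 estimates were below 0. Plxna4, an A-type plexin that takes part in class 3 and class 6 signalling, had the largest fall of all members. Its level was 48.5, 40.4 and 41.1 CPM in WT and 23.6, 17.5 and 19.3 CPM in S89G-DMP1 (log2 fold change -1.10 ± 0.14, adjusted p = 1.15e-08). Even the lowest WT library was well above the highest mutant library. Plxnb1, the receptor of Sema4d, had the smallest adjusted p of all members (2.63e-09), with 193, 199 and 199 CPM in WT and 143, 129 and 130 CPM in S89G-DMP1, a change of -0.56 ± 0.07.

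The other called plexins changed less. Plxnb2, a receptor of class 4 semaphorins that is abundant in neural progenitors, was the highest plexin per length at 67.0 ± 3.4 CPM per kb in WT and 59.6 ± 3.9 in S89G-DMP1 (SD, n = 3 each). In CPM it had 491, 543 and 517 in WT and 490, 460 and 430 in S89G-DMP1, so that the groups were barely separate, and the change was -0.17 ± 0.06 (adjusted p = 0.0239). Without WT replicate 2 or 3, or without S89G-DMP1 replicate 2 or 3, its adjusted p was between 0.060 and 0.165. Plxnd1, a receptor of Sema3e, had 70.0, 71.9 and 76.7 CPM in WT and 63.2, 56.9 and 59.8 CPM in S89G-DMP1 (-0.28 ± 0.10, adjusted p = 0.0377), and leaving out the same libraries gave an adjusted p of 0.0645 to 0.151. The A-type plexins Plxna1, Plxna2 and Plxna3 had estimates of -0.15, -0.04 and -0.13 with adjusted p-values of 0.111, 0.744 and 0.366, and so were not called beside Plxna4. Plxnc1, the receptor of Sema7a, had the only positive estimate (0.21 ± 0.11, adjusted p = 0.219).

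Of the neuropilins, the co-receptors of class 3 semaphorins, Nrp2 rose and Nrp1 was not called. Nrp2 had 35.0, 38.5 and 31.2 CPM in WT and 46.3, 57.3 and 51.7 CPM in S89G-DMP1 (0.57 ± 0.12, adjusted p = 3.35e-04). No mutant library overlapped with a WT library. Nrp1 had 55.2, 41.2 and 40.3 CPM in WT and 51.0, 39.4 and 46.9 CPM in S89G-DMP1, which overlap fully (0.01 ± 0.12, adjusted p = 0.963).

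Of 6 tested ephrins 1 fell (16.7%), and of 8 tested Eph receptors 2 fell (25%), beside 8.76% of all tested genes, and none was called higher. Efnb2, a transmembrane ephrin that binds EphB receptors and EphA4, had 32.0, 32.6 and 32.7 CPM in WT and 25.7, 22.3 and 25.7 CPM in S89G-DMP1 (-0.40 ± 0.14, adjusted p = 0.0416). The groups were separate, yet leaving out any of the 6 libraries gave an adjusted p between 0.0643 and 0.169. Efnb1, the highest ephrin per length (11.8 ± 1.6 and 11.3 ± 0.57 CPM per kb, SD, n = 3 each), was not called (-0.07 ± 0.12, adjusted p = 0.755).

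Ephb2, a receptor of B-type ephrins, had 30.8, 37.7 and 33.5 CPM in WT and 29.9, 20.5 and 22.1 CPM in S89G-DMP1 (-0.50 ± 0.15, adjusted p = 0.0125). The lowest WT and the highest mutant library were close to each other, and without WT replicate 2, S89G-DMP1 replicate 2 or S89G-DMP1 replicate 3 the adjusted p was 0.0769 to 0.104. Ephb6, a family member without kinase activity, had 10.5, 15.9 and 18.8 CPM in WT and 9.69, 10.7 and 8.42 CPM in S89G-DMP1 (-0.66 ± 0.22, adjusted p = 0.0321). It is the one called member with overlapping groups, and without WT replicate 2 or 3, or S89G-DMP1 replicate 1 or 3, the adjusted p was 0.0715 to 0.236. Ephb3 was the highest Eph receptor per length (6.84 ± 0.48 and 6.44 ± 0.27 CPM per kb, SD, n = 3 each) and was not called (-0.09 ± 0.12, adjusted p = 0.677). Epha5 had nearly equal means (log2 fold change 0.00409 ± 0.089, adjusted p = 0.985). Ephb4 had the largest positive estimate of the family, 0.79 ± 0.35, from 6 to 16 counts per library, and was not called (adjusted p = 0.124).

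The Slit, Robo, Unc5 and Dcc genes were at low to moderate levels in NSCs. Slit1 was the only tested Slit ligand, at 9.69, 8.16 and 8.79 CPM in WT and 8.0, 11.1 and 10.4 CPM in S89G-DMP1 (0.15 ± 0.24, adjusted p = 0.743). Robo2, a Slit receptor, rose from 22.8, 21.0 and 13.98 CPM in WT to 34.1, 27.8 and 24.1 CPM in S89G-DMP1 (0.57 ± 0.17, adjusted p = 0.00997). WT replicate 3 was low, and without it the adjusted p was 0.146, as it was 0.114 without S89G-DMP1 replicate 1. Robo1, the highest Robo gene per length (4.0 ± 0.40 and 3.52 ± 0.29 CPM per kb, SD, n = 3 each), was not called (-0.19 ± 0.10, adjusted p = 0.236). Robo3 was not called and had a large error (-0.88 ± 0.35, adjusted p = 0.0801).

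Unc5b, a netrin receptor for repulsion, had 24.0, 26.8 and 23.6 CPM in WT and 19.8, 16.7 and 16.8 CPM in S89G-DMP1 (-0.48 ± 0.16, adjusted p = 0.0335). The groups were separate, and without WT replicate 2, S89G-DMP1 replicate 2 or S89G-DMP1 replicate 3 the adjusted p was 0.113 to 0.135. Unc5a, the highest of this group per length (5.87 ± 0.44 and 5.06 ± 0.49 CPM per kb, SD, n = 3 each), and Dcc were not called (-0.21 ± 0.16 and -0.35 ± 0.16, adjusted p = 0.414 and 0.136). In each of 12 alternative fits with another test, scaling or filter, a replicate block or 1 library left out, Sema3c, Sema4g, Sema5b, Sema6a, Plxna4, Plxnb1 and Nrp2 stayed called. Of these 7, Sema3c, Sema4g and Plxna4 also changed at least 1.5-fold.

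Other genes of axon guidance, a list of 89 further ligands, co-receptors, adhesion molecules and cytoplasmic effectors, were examined beside the members. Of these, 88 were found and 71 tested in NSCs, and 19 (26.8%) fell while 1 rose (1.41%), with a median of -0.10, where 8.76% of all tested genes fell, 7.08% rose and the median was 0.00256. Flrt1, an adhesion protein of the Flrt family, fell most, from 13.1, 10.9 and 15.2 CPM in WT to 2.11, 3.42 and 1.20 CPM in S89G-DMP1 (-2.52 ± 0.33, adjusted p = 9.28e-09). The Nogo pathway was represented by Rtn4, which encodes Nogo (-0.33 ± 0.06, adjusted p = 5.52e-06), the Nogo receptor homologue Rtn4rl1 (-1.09 ± 0.21, adjusted p = 7.44e-05) and Lingo1, a partner of the Nogo receptor (-0.69 ± 0.11, adjusted p = 1.41e-06). Of the same pathway, Omg was not called (-0.46, adjusted p = 0.116), and Rtn4r, Rtn4rl2, Mag and Ngfr did not pass the filter. Of the collapsin response mediator genes, which act below semaphorin receptors, Dpysl4 (-0.82), Dpysl3 (-0.25) and Dpysl2 (-0.18) fell, while Crmp1 (0.07, adjusted p = 0.569) and Dpysl5 (-0.14, adjusted p = 0.607) were not called.

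The other lower genes of that list were surface molecules, a netrin, effectors and a growth cone protein. Adhesion molecules and surface receptors among them were Nfasc (-0.58), Ncam1 (-0.34), Ptprs (-0.33) and Ptprf (-0.18), and the netrin family contributed Ntn4 (-0.43). Effectors of the cytoskeleton and of small GTPases were Srgap1 (-0.43) and Srgap2 (-0.19), which bind Robo receptors, Mical2 (-0.41), Dock1 (-0.37), Farp1 (-0.23) and Trio (-0.18), with the growth cone protein Gap43 at -0.28. Chl1, an adhesion molecule that interacts with semaphorin receptors, was the gene that rose, from 214, 210 and 220 CPM to 253, 236 and 246 CPM (0.19 ± 0.06, adjusted p = 0.0217).

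In the astrocyte cultures there was 1 library per genotype, so no p-value can be given and each value compares 2 libraries, not the genotypes. Of the 65 members, 59 reached 10 counts in one library or the other. In the library labelled S89G-DMP1, 16 (27.1%) were at least 2-fold higher, where 17.3% of the 15680 counted genes were, and 12 (20.3%) were at least 2-fold lower, where 12.8% of all were. The other 31 lay within 2-fold. Of the 16, Sema5b, Epha3, Epha5, Ephb1 and Robo3 reached 10 counts only in the library labelled S89G-DMP1, where they are high. None of the 12 lower members entered through only one library. The median log2 ratio of the members was 0.36, also with the single member that had 0 counts in one library set to its bound, beside 0.00956 for all counted genes. Scaling by library size alone in place of TMM shifted the median of all genes to 0.30 and that of the members to 0.65, and gave 20 higher and 7 lower members, where all counted genes gave 3487 higher and 1515 lower. Among members past 2-fold, the higher share was then 74.1% in place of 57.1%, and among all genes past 2-fold 69.7% in place of 57.4%. The intervals below are exact binomial (Clopper-Pearson) 95% intervals of the log2 ratio and cover counting error only.

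The 2 astrocyte libraries differed in their cell type markers. Summed over 8 genes each, astrocyte markers stood at 117 CPM in the library labelled WT and 1043 CPM in the library labelled S89G-DMP1, progenitor markers at 832 and 2181 CPM, fibroblast or meningeal markers at 5263 and 2135 CPM, and endothelial markers at 170 and 17.9 CPM. Neuron markers stood at 97.4 and 300 CPM, oligodendrocyte lineage markers at 189 and 339 CPM, and microglial markers at 582 and 851 CPM. Mural markers stood at 1949 and 2671 CPM, of which Acta2 alone made 723 and 2468 CPM. Of the counted markers, 6 of 8 astrocyte and 5 of 7 progenitor genes were at least 2-fold higher, and 6 of 8 fibroblast or meningeal and 5 of 6 endothelial genes at least 2-fold lower. At least 2-fold higher were also 3 of 4 neuron, 3 of 7 oligodendrocyte lineage and 3 of 8 microglial genes, with 1 lower in each list. Of 7 mural genes 4 were lower and 1 higher. Of the progenitor markers, Sox2 had 30 and 2705 counts and Sox1 had 0 and 655. Xist had 12172 and 74 counts and Ddx3y had 0 and 1277. The X-linked members Efnb1, Plxna3 and Plxnb3 were within 2-fold, at 0.44, 0.72 and 0.60. The part of these differences in the ratios of the members was not tested.

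**Figure D3:**
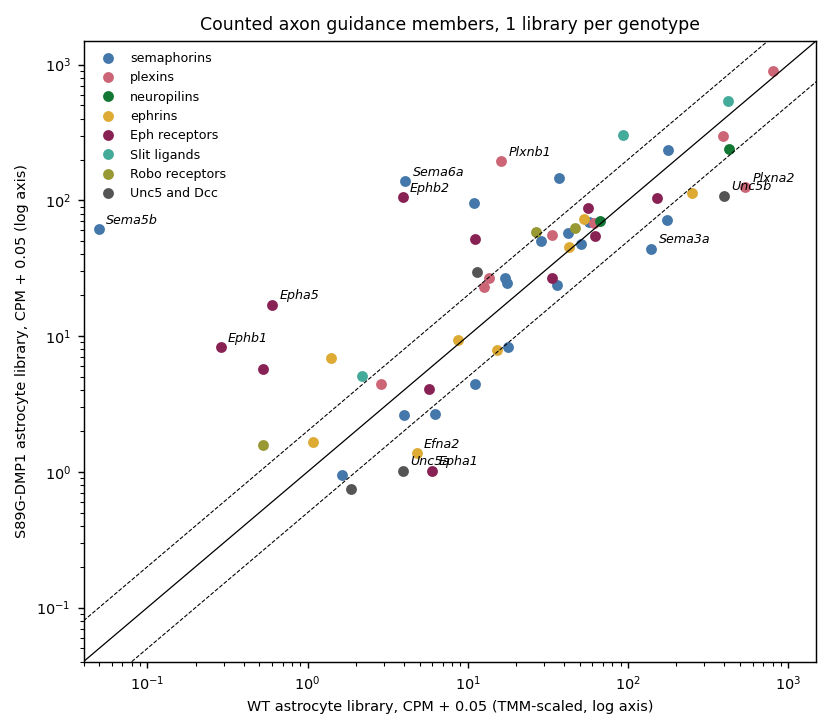
CPM + 0.05 (TMM-scaled, log axes) of the 59 counted members in the astrocyte library labelled WT against the library labelled S89G-DMP1, coloured by family, with the line of equality and dashed lines at 2-fold. The named points are the 6 members with the largest ratio in each direction, and Sema5b lies at the left edge because it had 0 counts in the library labelled WT.

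Among the semaphorins, 4 were at least 2-fold higher (21.1%), beside 17.3% of all counted genes, and 5 lower (26.3%), beside 12.8%. The other 10 were within 2-fold. Sema5b had 0 counts in the library labelled WT and 880 in the library labelled S89G-DMP1 (61.1 CPM). This is at least 258-fold higher when 3 counts are taken as the floor for the library labelled WT. Sema6a had 51 and 1997 counts (4.03 and 139 CPM), a log2 ratio of 5.05 with an interval of 4.70 to 5.54. Both are transmembrane ligands that fell in S89G-DMP1 NSCs. Sema3f, a secreted ligand that prefers Nrp2, was 3.12 higher, and Sema6d was 2.0 higher. Sema3a had 1769 and 632 counts (140 and 43.9 CPM), a log2 ratio of -1.67 (interval -1.80 to -1.54). Sema3e, the ligand of Plxnd1, was at -1.28. Sema3c had the highest level per length of the family, 24.7 and 32.9 CPM per kb, and was within 2-fold (0.41).

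Of the receptors of semaphorins, Plxnb1 was the one plexin at least 2-fold higher, with 204 and 2807 counts (16.1 and 195 CPM) and a log2 ratio of 3.58 (interval 3.39 to 3.81). Plxna2 was the one plexin at least 2-fold lower, with 6833 and 1794 counts (540 and 125 CPM) and a log2 ratio of -2.11 (interval -2.19 to -2.04). The other 7 plexins were within 2-fold. Plxnb2 was again the highest member per length in both libraries, at 104 and 117 CPM per kb (log2 ratio 0.17). Nrp1, the higher neuropilin at 43.5 and 24.3 CPM per kb, was at -0.84, and Nrp2 at 0.08.

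Of 11 counted Eph receptors 5 were at least 2-fold higher (45.5%), beside 17.3% of all counted genes. Epha3 (6 and 82 counts), Epha5 and Ephb1 reached 10 counts only in the library labelled S89G-DMP1, where they are high. The share of 45.5% thus depends in part on the filter. Ephb2 had 49 and 1520 counts (3.87 and 106 CPM) and a log2 ratio of 4.72 (interval 4.36 to 5.21). Epha5 had 7 and 245 counts (0.553 and 17.01 CPM) and a log2 ratio of 4.61 (interval 3.88 to 6.27). Ephb1 had 3 and 118 counts, a log2 ratio of 4.44 (interval 3.53 to 7.41). All 3 receptors were low in the library labelled WT and readily counted in the other. Epha3 and Ephb3 were also higher, at 3.23 and 2.21. Epha1 was the one Eph receptor at least 2-fold lower, from 75 to 14 counts (-2.44, interval -3.55 to -1.77), and its exons share bases with Zyx, so part of its counts cannot be assigned with certainty. Epha4 was the highest Eph receptor per length, at 18.9 and 12.98 CPM per kb, and was within 2-fold (-0.54).

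Of the ephrins, Efnb3 was higher (2.22, 17 and 98 counts), and Efna2 and Efnb2 were lower. Efna2, a lipid-anchored ephrin, had 60 and 19 counts (-1.74, interval -2.67 to -1.08). Efnb2 had 3191 and 1644 counts (252 and 114 CPM), a log2 ratio of -1.14, and was the highest ephrin per length at 36.8 and 16.7 CPM per kb.

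Of the Slit ligands, Slit2 and Slit3, which had at most 3 and 0 counts in an NSC library, were readily counted in the astrocyte cultures. Slit3 had 15.3 and 49.8 CPM per kb and a log2 ratio of 1.70, and Slit2 had 16.6 and 21.3 CPM per kb and a ratio of 0.36. Slit1 stayed low per length, at 0.360 and 0.856 CPM per kb from 27 and 73 counts (log2 ratio 1.19). The tables of both cell types came from different pipelines, so no ratio between cell types was formed. Robo1 was the highest Robo gene per length (2.82 and 3.76 CPM per kb), and Robo2 and Robo3 were at least 2-fold higher, at 1.13 and 1.43. Among netrin receptors, Unc5b stood out by level, with 63.5 and 17.3 CPM per kb, and it had 5033 and 1557 counts (log2 ratio -1.88, interval -1.96 to -1.80). Unc5a was at -1.84 (interval -2.97 to -1.11) from 49 and 14 counts, and Unc5c was higher at 1.38. Dcc, with 1 and 4 counts, was not compared.

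**Figure D4:**
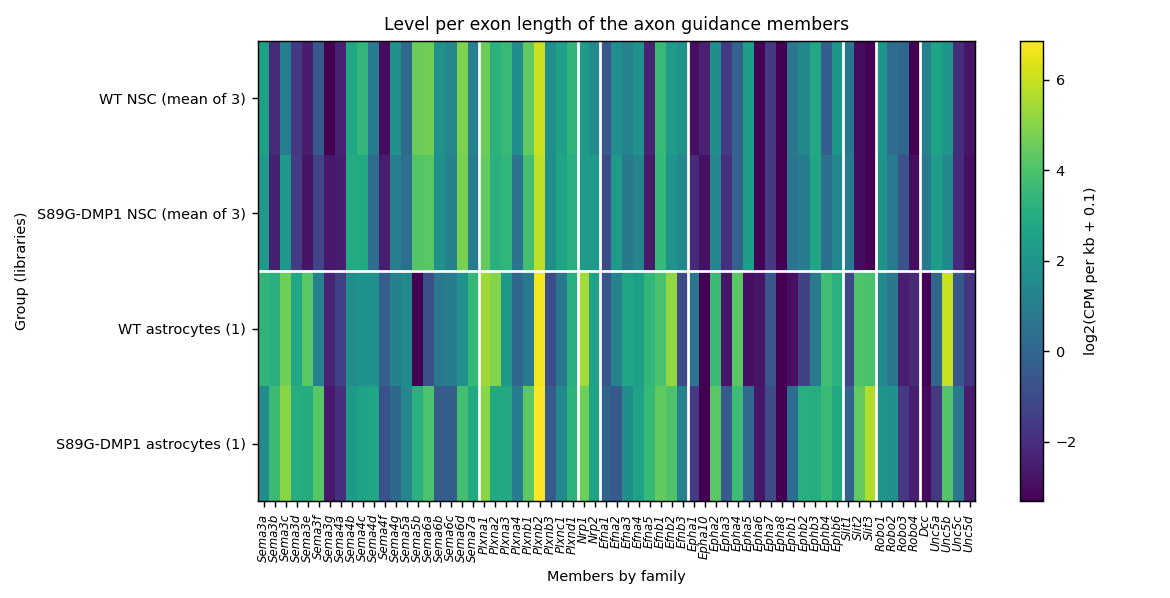
Level per exon length, as log2(CPM per kb + 0.1), of all 65 members in the 4 groups, with the mean of 3 libraries for NSCs and 1 library each for astrocytes. Plxnb2 is the brightest column in all 4 rows, and Slit2, Slit3 and Unc5b are bright in the astrocyte rows. The row of the astrocyte library labelled WT is dark at Sema5b, Epha5 and Ephb1.

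Of the other axon guidance genes, 83 were counted in astrocytes, with 28 (33.7%) at least 2-fold higher, 9 (10.8%) lower and a median log2 ratio of 0.20, beside 17.3% higher and 12.8% lower of all counted genes. The morphogen Shh had 0 and 643 counts, at least 188-fold higher with 3 counts as the floor. Dpysl5, a collapsin response mediator, was at 6.26 (7 and 773 counts) and Chl1 at 5.07 (15 and 644 counts). The largest decreases were those of the chemokine Cxcl12 (-4.11, 5521 and 362 counts), of Flrt2, a ligand of Unc5 receptors (-3.42, 7199 and 761 counts), and of Crmp1 (-3.20, 273 and 32 counts).

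The 16 members called in NSCs were all counted in astrocytes. The sign was the same in both cell types for 8 and opposite for 8. Past 2-fold in astrocytes and of the same sign were 5 members, Sema3a, Sema4g, Efnb2 and Unc5b, which were lower in both, and Robo2, which was higher in both. Past 2-fold with the opposite sign were Sema5b, Sema6a, Plxnb1 and Ephb2, lower in S89G-DMP1 NSCs and higher in the astrocyte library labelled S89G-DMP1. The remaining 7 were within 2-fold, among them Plxna4 just inside the limit at 0.98. Sema3c and Nrp2, which rose in NSCs, were at 0.41 and 0.08. With 1 astrocyte library per genotype the difference between cell types could not be tested. If the 2 astrocyte labels were exchanged, every astrocyte sign would turn, so that Sema5b, Sema6a, Plxnb1 and Ephb2 would share the sign of the NSCs and the 5 members named before them would not.

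**Figure D5:**
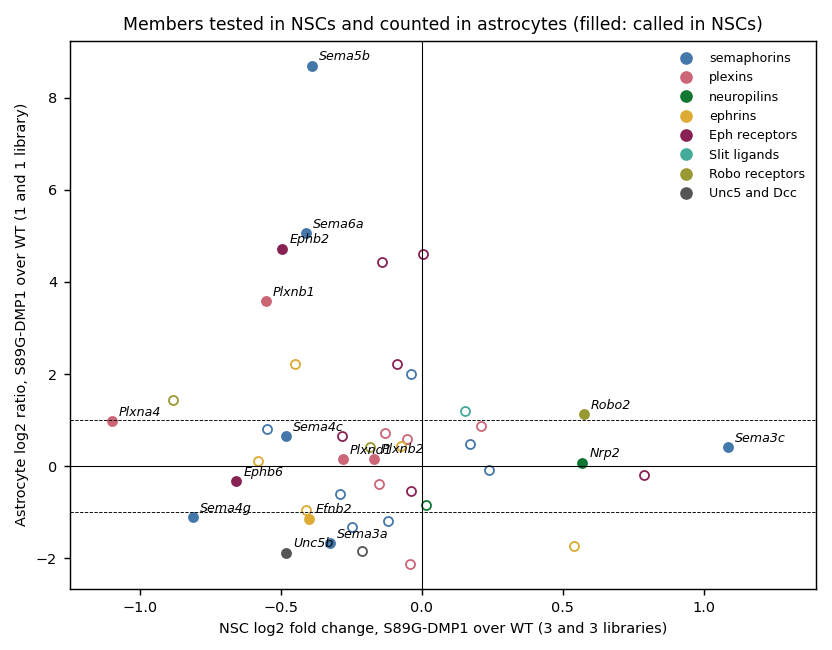
Log2 fold change in NSCs (3 libraries per genotype) against the log2 ratio in astrocytes (1 library per genotype, dashed lines at 2-fold) for the 44 members tested in one and counted in the other, filled where called in NSCs. Sema5b, Sema6a, Plxnb1 and Ephb2 sit at the upper left, lower in NSCs and higher in astrocytes, and the height of Sema5b depends on the prior count because it had 0 counts in the library labelled WT.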

How the data were processed

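The members and gene lists were chosen with earlier results of these data known. Members were found by symbol in GENCODE vM21 (GRCm38), whose merged exon lengths gave the CPM per kb. The authors deposited whole-number read counts per Ensembl gene for both cell types, and FPKM values for astrocytes. A TPM table of NSCs was not used here. According to the submitters' processing notes, NSC reads were processed with HISAT2, StringTie and featureCounts on GRCm38, and astrocyte reads with Bowtie2 2.0.6 and TopHat2 2.0.9. The astrocyte genome build and whether counting used strand are not given in the sources used here.

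NSC counts were tested with the quasi-likelihood test of edgeR 4.0.16 (R 4.3.3, limma 3.58.1) over all genes that passed filterByExpr, with TMM factors, genotype as the only term and Benjamini-Hochberg adjustment, called at an adjusted p under 0.05. DESeq2 1.42.0, other scalings, other filters, a replicate block and leaving out each library were alternatives. Libraries sharing a number did not deviate together (correlations of 0.0279, -0.0099 and -0.0168 over genes), so the main fit has no block. Depth was 2354620 to 2588130 counts per NSC library.

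Astrocyte counts (13016900 and 14008700) gave a log2 ratio per gene, from CPM scaled by TMM after adding a prior count of 2, wherever one of the libraries reached 10 counts. The deposited FPKM values served in an alternative, as log2(FPKM + 1). A gene at 0 in one library was given a bound from 3 counts.

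Named are all members called in NSCs, the 6 largest increases and decreases past 2-fold in astrocytes, the member of each family with the highest level per length, and pathway genes called in NSCs or among the 3 largest changes each way in astrocytes. Further members are named as examples and were chosen after their values were seen.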

Additional observations from a re-analysis of the deposited data

Results flagged for a closer look

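A difference between the cell types was flagged for 4 members, because the groups of NSC libraries were separate in one direction while the pair of astrocyte libraries differed at least 2-fold in the other. The difference itself was not tested. Sema5b had a log2 fold change of -0.39 in NSCs and a log2 ratio of 8.69 in astrocytes, the latter from 0 and 880 counts and so dependent on the prior count. For Sema6a the values were -0.41 and 5.05, for Plxnb1 -0.56 and 3.58, and for Ephb2 -0.50 and 4.72. Beside them stand the astrocyte markers of the same libraries, at a summed 117 CPM in the astrocyte library labelled WT and 1043 CPM in the one labelled S89G-DMP1. Their part in the difference was not tested, and the direction in astrocytes rests on the labels of 1 library per genotype.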

How the results depend on the processing

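In NSCs the 13 lower members became 5 by DESeq2 and 6 to 11 when 1 library was left out. They were 7 without WT replicate 2, 8 without S89G-DMP1 replicate 2 and 6 without S89G-DMP1 replicate 3. All lower genes went from 981 to 837, 770 and 792 in these fits, so the members lost a larger share of their calls. Also asking for a 1.5-fold change left 3 lower and 1 higher, a threshold at which all genes were not counted. The higher members numbered 2 to 3 without 1 library, and the median ran from -0.23 to -0.16. Of the other pathway genes, the 1 higher gene became 0 by DESeq2 and 0 to 4 without 1 library (4 without WT replicate 1, 0 without S89G-DMP1 replicate 1), and 1.5-fold left 0 higher and 4 lower. Lower pathway genes numbered 14 to 19 without 1 library. Over all genes tested, DESeq2 called 321 higher and 424 lower, against 792 and 981 by edgeR. Across the 16 called members and 12 alternatives, 152 values kept their side of the threshold and direction and 40 lost significance, with none reversed. The cause was not tested.

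With the replicate number as a block, 13 members were lower and 3 higher (pathway genes 19 and 1, median -0.19, all genes 1016 lower and 829 higher). The numbers share no stated culture or animal, and same-numbered libraries did not deviate together. Not every library correlated best with its own number.

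In astrocytes the 12 lower members became 7 with library size alone, 4 on log2(FPKM + 1) and 2 at 4-fold, and the 16 higher became 10 at 4-fold. All counted genes went from 2010 lower to 1515, 1020 and 813 in these settings, and from 2713 higher to 1354 at 4-fold. On log2(FPKM + 1) the lower share of the 59 members was close to that of all 15680 genes. At 4-fold it was below that of all genes. The median became 0.65 with library size alone and 0.16 with 10 counts required in both libraries. The latter removes 5 members, Sema5b, Epha3, Epha5, Ephb1 and Robo3, all among the 16 higher. The median of all genes was then -0.0371. Lower pathway genes became 5 on log2(FPKM + 1), 17 at 1.5-fold and 4 at 4-fold. At NSC depth, members with at most 9 counts per library could not be tested.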
